A study of Homo sapiens with 6 samples.

Results

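The genes described here encode subunits of potassium, sodium and calcium channels. They were taken by gene symbol (KCN names with a class letter and a number, SCN names ending in A or B, and CACNA, CACNB, CACNG and CACNA2D names) from the table of gene levels that the file describes as mRNA. The rule found 135 of the 59609 genes of that table, of which 95 belong to potassium, 14 to sodium and 26 to calcium channels. All 135 were annotated as protein-coding, among 19777 protein-coding genes in the table. The gene type was taken from RefSeq and, where RefSeq had none, from GENCODE v29 (build GRCh38). The cells were neurons of forebrain type grown from H9, a human embryonic stem cell line, and were collected at day 26. RNA of the cytoplasm, RNA of the nucleus and RNA of the total cell were each sequenced in 2 libraries after depletion of ribosomal RNA. All 6 libraries came from wild-type, untreated cells. The labels name the source as forebrain neuron progenitors and the cell type as neurons, and nothing in them tells if the 2 replicates of a group were grown apart, so the p-values speak only to the spread among these libraries.

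Ion channels of these families are built around pore-forming subunits that open in response to voltage, calcium or other signals, and auxiliary subunits that bind the pore and alter its gating or its transport to the membrane. Sodium channels carry the rising phase of the action potential, potassium channels repolarise the membrane and set the resting potential, and calcium channels couple voltage to transmitter release and gene expression. Immature neurons acquire these subunits as they differentiate, and several are used in the fetal brain before the adult set is in place.

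Levels are FPKM, fragments per kilobase of gene, scaled to the size of the library, so that levels of different genes are compared per length. The steps between low FPKM values correspond to library sizes of 34900000 to 120000000 fragments, but only 56.6% to 65.4% of low values fell on whole fragments within 0.02, so no counts were recovered and the depth behind single genes stays approximate. The total-cell libraries stood apart from both fractions, and their columns are written with more digits than the fraction columns. Summed over 14 neuron markers, the level was 347 and 315 FPKM in the cytoplasmic, 112 and 131 FPKM in the nuclear and 683 and 769 FPKM in the total-cell libraries. For 13 of these 14 markers both total-cell values lay above all 4 fraction values. Of the 10246 protein-coding genes with a mean of at least 1 FPKM over the 6 libraries, 49.6% showed this. Summed over 14 forebrain progenitor markers, the level was 877 and 819 FPKM in the cytoplasmic, 378 and 411 FPKM in the nuclear and 468 and 502 FPKM in the total-cell libraries. For 4 of these 14 both total-cell values lay above all fraction values, against the same share of 49.6% of genes. None of 10 glial markers (sums 0.841 to 2.92 FPKM) and none of 6 microglial markers (sums 0.0903 to 0.767 FPKM) reached a mean of 1 FPKM over the 6 libraries. Of 7 pluripotency markers 3 reached that mean, with LIN28A at 14.2 and 13.5 FPKM in the cytoplasmic, 3.76 and 4.28 FPKM in the nuclear and 4.68 and 5.84 FPKM in the total-cell libraries, and with DNMT3B and DPPA4 at 1.15 to 4.35 FPKM. NANOG and POU5F1 of the same list were at 0 to 0.0759 FPKM. In bulk RNA, fewer cells of a type and less RNA per cell cannot be told apart.

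In total-cell RNA 43 of the 135 channel genes had a mean of at least 1 FPKM: 24 potassium, 5 sodium and 14 calcium channel genes. The median channel gene stood at 0.468 FPKM there, 32 genes were under 0.1 FPKM, and 15 were listed at 0 in at least 1 library. A mean of at least 1 FPKM over all 6 libraries, the filter for the tests, was reached by 24 genes (13 potassium, 3 sodium and 8 calcium). Of these 24, 8 had neither fraction mean at 1 FPKM and so passed through their total-cell level. Just below the filter were SCN8A (6-library mean 0.941 FPKM), CACNA2D1 (0.972 FPKM) and KCNK3 (0.984 FPKM), and CACNA1A (1.07 FPKM) and KCNC1 (1.09 FPKM) were among those just above it. All channel genes together summed to 96.4 and 89.3 FPKM in the cytoplasmic, 44.7 and 48.5 FPKM in the nuclear and 171 and 189 FPKM in the total-cell libraries. As a share of the FPKM of all protein-coding genes this was 0.0706% and 0.0699% in the cytoplasmic, 0.123% and 0.117% in the nuclear and 0.173% and 0.170% in the total-cell libraries. The channel share was thus lowest in both cytoplasmic libraries and highest in both total-cell libraries, with no overlap between the 3 groups.

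**Figure D1:**
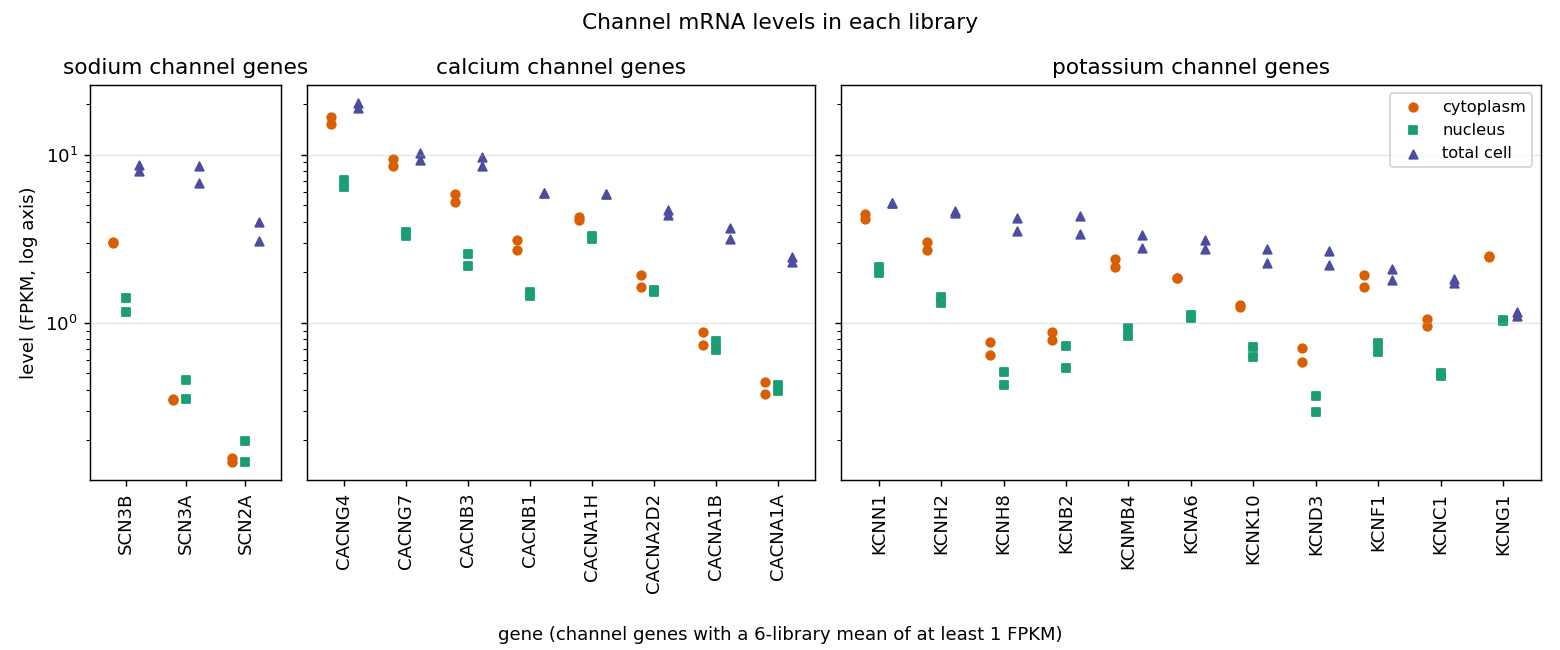
Level in FPKM on a log axis of 22 channel genes with a 6-library mean of at least 1 FPKM, ordered within each family by total-cell mean; each point is 1 library of the cytoplasm (circles), the nucleus (squares) or the total cell (triangles). The total-cell points lie above all fraction points for 19 of the 22 genes, and for SCN3A and SCN2A the total-cell mean is 18.9 and 20.3 times the higher fraction mean.

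Sodium channel pore genes stood far higher in the total cell than in either fraction. SCN3A, a pore gene strongly used in the fetal brain (chr2:165087522-165204067, GRCh38), had 0.354 and 0.347 FPKM in the cytoplasmic libraries, 0.352 and 0.456 FPKM in the nuclear libraries and 6.77 and 8.5 FPKM in the total-cell libraries. SCN2A, the pore gene of the axon initial segment in young neurons (chr2:165194993-165392310), had 0.149 and 0.157 FPKM in the cytoplasmic, 0.149 and 0.199 FPKM in the nuclear and 3.08 and 4.0 FPKM in the total-cell libraries. For both genes the cytoplasmic and nuclear values overlapped, and both total-cell values were far above them. The total-cell mean was 18.9 times the higher fraction mean for SCN3A and 20.3 times for SCN2A. It was also high for the other pore genes with a total-cell mean of at least 1 FPKM, at 13.1 times for SCN9A, known from sensory neurons, and 5.01 times for SCN8A, the main pore gene of mature axons. The remaining 6 pore genes had total-cell means of 0.00823 to 0.401 FPKM, with SCN1A, which rises later in brain development, at 0.0552 FPKM.

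The sodium pore genes are close paralogs, and SCN3A and SCN2A lie side by side on opposite strands with annotated spans that overlap. Between their reference coding sequences (GENCODE v29) the longest identical stretch is 137 bases. SCN3A and SCN9A share a run of 206 bases and 57 identical windows of 150 bases, SCN2A and SCN1A a run of 170 bases and 21 such windows, and SCN2A and SCN8A no run over 26 bases. No source used here states how reads that match several genes were treated or whether counting used the strand, so the split of reads within this group is uncertain.

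SCN3B, an auxiliary beta subunit that adjusts sodium channel gating, had the highest level of the sodium family. It had 3.03 and 3.0 FPKM in the cytoplasmic libraries, 1.16 and 1.41 FPKM in the nuclear libraries and 7.95 and 8.63 FPKM in the total-cell libraries. The 3 groups did not overlap, and as deposited the cytoplasm stood above the nucleus by 0.81 ± 0.12 on the log2(FPKM + 1) scale (limma SE, adjusted p = 4.06e-11). With the libraries scaled to equal medians that difference was 0.03 and not called (limma adjusted p = 0.65). The difference of this gene from the pore genes was not tested.

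Among calcium channel genes, CACNG4 had the highest level of the whole set. CACNG4 and CACNG7 encode members of the gamma family, which is known mainly for carrying AMPA-type glutamate receptors to synapses. CACNG4 (chr17:66964910-67033398) had 16.8 and 15.1 FPKM in the cytoplasmic libraries, 6.39 and 7.09 FPKM in the nuclear libraries and 19.0 and 20.3 FPKM in the total-cell libraries. CACNG7 (chr19:53909335-53943941) had 9.41 and 8.57 FPKM in the cytoplasmic, 3.28 and 3.46 FPKM in the nuclear and 10.2 and 9.34 FPKM in the total-cell libraries. The nuclear values were the lowest for both genes, and the cytoplasmic and total-cell values overlapped for CACNG7 only. CACNG8 and CACNG2, of the same class, were also highest in the total cell, but by more: their total-cell means of 2.27 and 1.48 FPKM were 7.63 and 8.0 times the higher fraction mean, against 1.23 times for CACNG4 and 1.09 times for CACNG7. CACNG7 and CACNG8 lie near each other on chromosome 19.

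Of the 4 beta subunit genes, whose proteins bring the pore to the membrane, CACNB3 and CACNB1 had the higher levels. CACNB3 had 5.85 and 5.23 FPKM in the cytoplasmic libraries, 2.19 and 2.56 FPKM in the nuclear libraries and 8.51 and 9.67 FPKM in the total-cell libraries. CACNB1 had 3.10 and 2.72 FPKM in the cytoplasmic, 1.45 and 1.53 FPKM in the nuclear and 5.93 and 5.95 FPKM in the total-cell libraries. For both, every cytoplasmic value exceeded every nuclear value and every total-cell value exceeded both fractions. CACNB2 and CACNB4, with total-cell means of 0.922 and 0.694 FPKM, stood 5.07 and 10.8 times above the higher fraction mean, against 1.64 times for CACNB3 and 2.04 times for CACNB1.

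In the calcium pore and alpha2delta genes with a total-cell mean of at least 1 FPKM the cytoplasmic level was close to the nuclear level. CACNA1H, a low-voltage (T-type) pore gene, had 4.27 and 4.10 FPKM in the cytoplasmic libraries, 3.16 and 3.29 FPKM in the nuclear libraries and 5.79 and 5.82 FPKM in the total-cell libraries. CACNA1B, the N-type pore gene of nerve terminals, had 0.886 and 0.739 FPKM in the cytoplasmic, 0.691 and 0.780 FPKM in the nuclear and 3.16 and 3.64 FPKM in the total-cell libraries. Cytoplasm and nucleus were separate for CACNA1H and overlapped for CACNA1B. CACNA1A, the P/Q-type pore gene that also serves transmitter release, had 0.443 and 0.377 FPKM in the cytoplasmic, 0.391 and 0.426 FPKM in the nuclear and 2.31 and 2.46 FPKM in the total-cell libraries. CACNA2D2, whose protein is an extracellular auxiliary subunit, had 1.92 and 1.64 FPKM in the cytoplasmic, 1.58 and 1.53 FPKM in the nuclear and 4.36 and 4.67 FPKM in the total-cell libraries. The fractions overlapped for CACNA1A, and for CACNA2D2 the cytoplasm was above the nucleus by a small margin. CACNA2D3, with a total-cell mean of 0.968 FPKM, differed from these, at 0.178 and 0.264 FPKM in the cytoplasmic and 0.0950 and 0.119 FPKM in the nuclear libraries. Over the 6 calcium pore genes with a total-cell mean of at least 1 FPKM, the cytoplasm over nucleus ratio of the means ran from 0.853 (CACNA1E, R-type) to 1.30 (CACNA1H), against a median of 2.28 over the 11348 protein-coding genes with that level. CACNA1C, the L-type pore gene that links depolarisation to transcription, had a total-cell mean 9.07 times the higher fraction mean, and CACNA1E 10.7 times.

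Potassium channel genes made up most of the set, and its best expressed members included pore genes of the small-conductance and the hERG type. KCNN1, a calcium-activated pore gene, had 4.46 and 4.12 FPKM in the cytoplasmic, 1.97 and 2.15 FPKM in the nuclear and 5.13 and 5.15 FPKM in the total-cell libraries. KCNH2, the hERG pore gene known for repolarising heart muscle, had 3.03 and 2.71 FPKM in the cytoplasmic, 1.43 and 1.32 FPKM in the nuclear and 4.48 and 4.62 FPKM in the total-cell libraries. In both genes the groups ranked nucleus, cytoplasm, total cell with no overlap.

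KCNB2, a delayed-rectifier pore gene, had 0.887 and 0.794 FPKM in the cytoplasmic libraries, 0.541 and 0.724 FPKM in the nuclear libraries and 3.37 and 4.29 FPKM in the total-cell libraries. KCNH8, of the ether-à-go-go-like class, had 0.772 and 0.647 FPKM in the cytoplasmic, 0.429 and 0.514 FPKM in the nuclear and 3.51 and 4.18 FPKM in the total-cell libraries. In these 2 pore genes the fractions lay close together and far below the total cell, by 4.56 and 5.42 times on the means. The total-cell excess over the higher fraction mean was larger still for KCNH7 (9.26 times), for the A-type pore gene KCND2 (8.77 times) and for KCNMA1, the large-conductance calcium-activated pore (8.24 times). Over the 13 voltage-gated pore genes with a total-cell mean of at least 1 FPKM it ran from 1.47 to 9.26 times with a median of 2.94.

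KCNG1, which encodes a silent potassium channel subunit, stood at the other end of the range. Silent subunits do not conduct on their own and join delayed-rectifier pores such as that of KCNB2. KCNG1 had 2.45 and 2.49 FPKM in the cytoplasmic libraries, 1.03 and 1.05 FPKM in the nuclear libraries and 1.10 and 1.17 FPKM in the total-cell libraries. It was the only 1 of the 43 genes with a total-cell mean below the higher fraction mean, at 0.459 times, and its cytoplasmic values were the highest of the 6. Of the 11348 protein-coding genes with a total-cell mean of at least 1 FPKM, 4410 had a total-cell mean below the higher fraction mean. KCNF1, the other silent subunit above the filter, had 1.92 and 1.63 FPKM in the cytoplasmic, 0.674 and 0.759 FPKM in the nuclear and 1.80 and 2.08 FPKM in the total-cell libraries, so that its cytoplasmic and total-cell values overlapped. Among auxiliary and leak subunits, KCNMB4, a beta subunit of the KCNMA1 pore, and the K2P leak channel genes KCNK10 and KCNK3 had total-cell means 1.34, 1.98 and 1.26 times the cytoplasmic mean. Of the 3 potassium auxiliary genes with a total-cell mean of at least 1 FPKM, KCNMB4 had the lowest ratio of that mean to the higher fraction mean. In these 3 auxiliary genes the ratio reached 4.73.

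Cytoplasm and nucleus were compared to ask how these messages were distributed between the compartments. As deposited, 18 of the 24 channel genes tested were higher in the cytoplasm, 6 were not called and 0 were lower (limma, Benjamini-Hochberg adjusted p below 0.05), where 90.1% of the 10246 protein-coding genes tested were higher and 1.26% lower. The share of the 24 channel genes called higher was therefore below that of all genes, and the median log2 difference was 0.44 for the channel genes and 0.82 for all genes. The 8 genes with neither fraction mean at 1 FPKM held 5 of the 6 not called, and 3 were higher (median 0.12). Of the other 16 genes 15 were higher and 1 was not called (median 0.74). This split was made after the data were seen. Those 16 all reached 1 FPKM in the cytoplasm, so it favours genes high there. By family, 12 of 13 potassium, 5 of 8 calcium and 1 of 3 sodium channel genes were higher in the cytoplasm. The largest differences were those of CACNG7 (1.19 ± 0.13, limma SE, adjusted p = 5.53e-21), CACNG4 (1.13 ± 0.13, adjusted p = 2.87e-18) and CACNB3 (0.96 ± 0.12, adjusted p = 2.54e-14). Those not called were CACNA2D2, KCNB2, CACNA1B, CACNA1A, SCN2A and SCN3A, with log2 differences of 0.12, 0.17, 0.06, 0.0004, -0.03 and -0.06. limma estimated no spread between genes beyond its trend in this fit, so the very small p-values rest on a spread shared by all genes. With the spread of each gene alone, 16 were higher and 0 lower, where 83.1% of all tested genes were higher and 0.703% lower.

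Several calls near the threshold changed with the setting. When a library is left out, its group has 1 library, which is assumed to vary like the others. KCNH8 (log2 difference 0.22, adjusted p = 0.0426 in limma) lost its call without any of the 4 fraction libraries (adjusted p of 0.0817 to 0.296), with no filter (0.108), without the trend (0.0642) and with its own spread (0.128), while the difference stayed at 0.16 to 0.27. CACNA1H (0.30, adjusted p = 0.0179) lost it without any of the 4 fraction libraries (limma, 0.054 to 0.139), at differences of 0.27 to 0.32. KCND3 (0.31) lost its call without cytoplasm replicate 2 (limma adjusted p = 0.0703, difference 0.25) or nucleus replicate 1 (0.0654, difference 0.27), and with its own spread (0.0598). KCNB2 (0.17, adjusted p = 0.109) was called higher in limma without total-cell replicate 1 (0.0325) or total-cell replicate 2 (0.0314), with only the fractions in the fit (0.0271) and at a pseudocount of 0.1 FPKM (0.0369).

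The direction of a difference between compartments depends on the scale of the libraries. The median FPKM of the tested genes was 3.82 and 3.60 in the cytoplasmic, 1.5 and 1.75 in the nuclear and 4.24 and 4.95 in the total-cell libraries. After the libraries were scaled to equal medians, 0 of the 24 channel genes were higher in the cytoplasm and 11 were lower (limma), where 40% of all tested genes were higher and 33.4% lower. At an unadjusted p below 0.05, 12 of the 24 were called in that fit, where 75.2% of all tested genes were. The median log2 difference was then -0.12 for channel genes and 0.03 for all genes. The genes called lower in the cytoplasm than in the nucleus at equal medians were led by CACNA2D2 (-0.69 ± 0.07, limma SE), CACNA1H (-0.68 ± 0.07), CACNA1B (-0.54 ± 0.05), SCN3A (-0.47 ± 0.05), CACNA1A (-0.43 ± 0.05) and KCNB2 (-0.38 ± 0.06). All 6 had a limma adjusted p of 1.78e-04 or less. The others called included KCNA6, KCNH8, SCN2A and KCNK10, at -0.29 to -0.16. Of the 6 leading genes 4 belong to the pore or alpha2delta classes of the calcium family. CACNG7, at 0.20 ± 0.09 (limma adjusted p = 0.0733), had the highest scaled value and was not called.

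**Figure D2:**
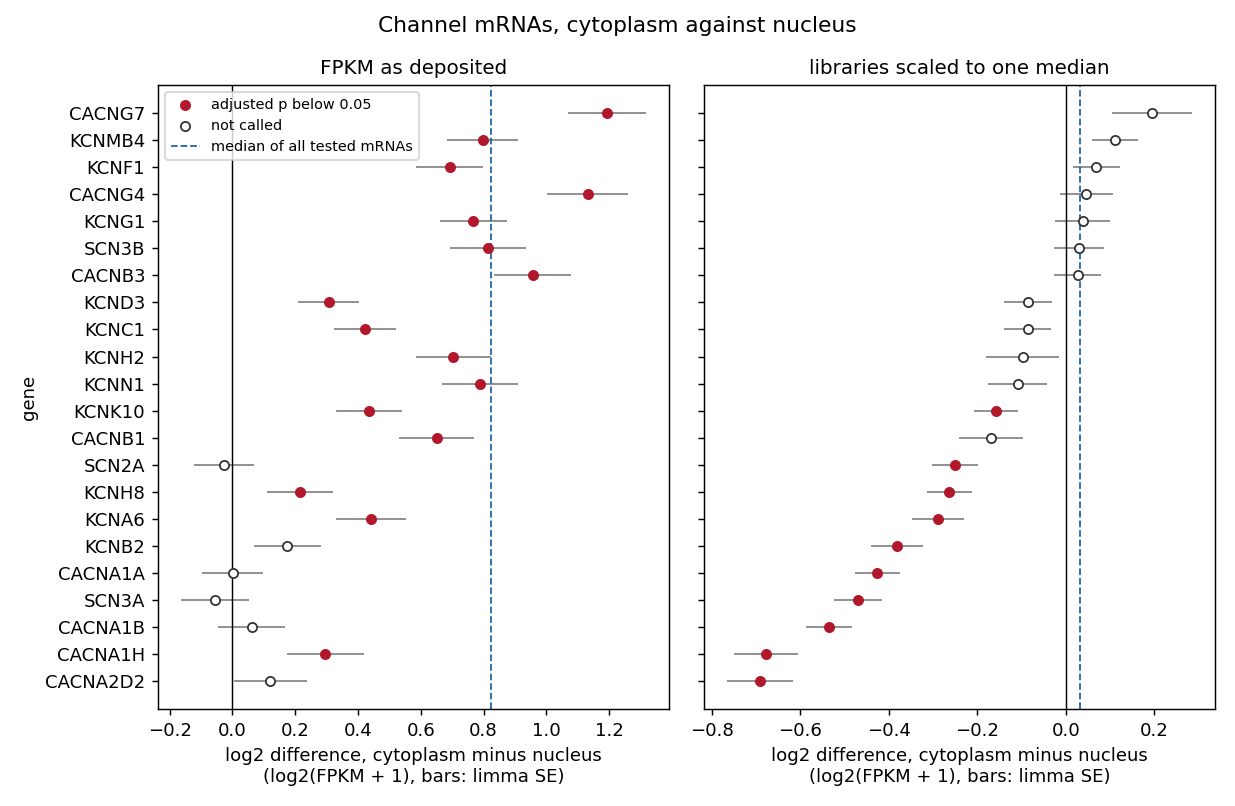
Log2 difference of cytoplasm minus nucleus (log2(FPKM + 1), bars are limma standard errors) for 22 channel genes, with FPKM as deposited on the left and libraries scaled to equal medians on the right; filled points have an adjusted p below 0.05 and the dashed line is the median of all 10246 genes tested. On the left 16 genes are called, all to the right of 0, and on the right 10 are called, all to the left of 0.

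The 24 genes passed a filter that uses all libraries, so the comparison was repeated on the 43 genes with a total-cell mean of at least 1 FPKM, which uses neither fraction. As deposited, 23 of the 43 were called higher in the cytoplasm than in the nucleus and 0 were called lower (limma), where 86.6% of 11348 genes were higher and 1.26% lower. With equal medians, a setting added after the data were seen, 3 were higher and 20 lower, where 38.5% of all genes were higher and 33.1% lower. The 3 that were higher were KCNIP1 (0.24), CACNG7 (0.23) and KCNMB4 (0.14). The lowest were CACNA2D2 (-0.67), CACNA1H (-0.65), CACNA1B (-0.52), CACNA2D1 (-0.47) and SCN3A (-0.46). The 3 higher genes encode auxiliary subunits, and so do CACNA2D2 and CACNA2D1 among the lowest. In 34 of the 43 genes both cytoplasmic values exceeded both nuclear values as deposited, where 92.2% of all 11348 genes did, and in CACNA1E both lay below. Of these 43 genes 26 had neither fraction mean at 1 FPKM. Among channel genes with a fraction mean of at least 1 FPKM, 18 of 18 had both cytoplasmic values above both nuclear values, where 95.9% of 9874 genes did. All 18 reached 1 FPKM in the cytoplasm, so that choice, made after the data were seen, favours genes high there.

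The fractions were then compared with total-cell RNA. These 2 comparisons share their total-cell libraries and are not independent of each other. Both total-cell values lay above all 4 fraction values in 21 of the 24 tested genes, where 49.6% of all tested genes showed this. Against the total cell, 1 of the 24 genes was higher in the cytoplasm, 20 were lower and 3 were not called (limma, adjusted p below 0.05), where 30.3% of all tested genes were higher and 43.9% lower. The 8 genes with neither fraction mean at 1 FPKM, SCN3A, SCN2A and KCNH8 among them, passed the filter through the total cell and had to stand high there. All 8 are among the 20 lower, and of the other 16 genes 12 were lower, 1 was higher and 3 were not called. The median log2 difference was -0.63 for channel genes and -0.13 for all genes. The gene that was higher was KCNG1 (0.70 ± 0.11, limma SE, adjusted p = 2.10e-10), and the lowest were SCN3A (-2.67 ± 0.11), SCN2A (-1.97 ± 0.10) and KCNH8 (-1.5 ± 0.10). CACNG7 (-0.11), KCNF1 (-0.08) and KCNN1 (-0.22) were not called. With equal medians 1 was higher and 17 lower, where 47.9% of all genes were higher and 37% lower. CACNG4 (-0.29, limma adjusted p = 0.0349) lost its call without cytoplasm replicate 1 (0.0768), cytoplasm replicate 2 (0.293) or total-cell replicate 2 (0.133). KCNMB4 lost its call without cytoplasm replicate 2 (limma adjusted p = 0.163) or total-cell replicate 2 (0.107), and CACNA1H without cytoplasm replicate 2 (0.0582). With the spread of each gene alone, CACNG4 (adjusted p = 0.0684, unmoderated limma fit) and KCNMB4 (0.0797) were not called and KCNN1 (0.0409) was.

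In the nucleus 0 of the 24 genes were higher than in the total cell, 23 were lower and 1 was not called (limma), where 0.654% of all tested genes were higher and 94.7% lower. The 23 include the 8 that passed through the total cell. The median log2 difference was -1.28 for channel genes and -1.05 for all genes. SCN3A (-2.61 ± 0.11, limma SE), SCN3B (-2.02 ± 0.12) and SCN2A (-1.94 ± 0.10) were the lowest, and KCNG1 (-0.07 ± 0.11, adjusted p = 0.551 in limma) was the gene not called. With equal medians 2 were higher and 15 lower, where 40.3% of all genes were higher and 37.8% lower. The higher ones were KCNG1 (0.78 ± 0.06) and CACNA1H (0.54 ± 0.07).

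On the 43 genes chosen by total-cell level alone, 1 was higher in the cytoplasm than in the total cell and 38 were lower (limma), where 26.8% of all genes with that level were higher and 48.7% lower. A filter on the total-cell level favours genes that stand high there, so these counts are given beside the background only. With equal medians 3 were higher and 35 lower, where 45% and 39.5% of all genes were. In the nucleus 0 of the 43 were higher than in the total cell and 42 lower, where 0.467% and 95.7% of all genes were, and with equal medians 3 were higher and 32 lower, where 37.4% and 40.3% were.

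The total-cell level relative to the fractions is given for the 43 channel genes with a total-cell mean of at least 1 FPKM as a description, since that choice favours genes high in the total cell and 26 of the 43 had neither fraction mean at 1 FPKM. For 40 of the 43 both total-cell values lay above all 4 fraction values, where 54.3% of the 11348 genes with that level did. The total-cell mean was more than 2 times both fraction means for 28 of the 43, where 25.9% of all genes reached this, and more than 5 times for 14 of the 43, where 5.18% did. The median ratio to the higher fraction mean was 3.23 for the channel genes and 1.22 for all genes. On the 18 channel genes with a fraction mean of at least 1 FPKM, a choice made after the data were seen that does not use the total cell, both total-cell values lay above all fraction values in 14, where 44.8% of 9874 genes showed this. The total-cell mean was over 2 times both fraction means in 3 of those 18, where 15.6% of genes were, a share near that of the channel genes. Over the 43, the median ratio was 13.1 over the 5 sodium, 3.71 over the 14 calcium and 2.50 over the 24 potassium channel genes. The neuron markers given above moved the same way, and their part in this result was not tested. Whether total-cell and fraction RNA came from the same cultures is not given in the sources used here. The share of channel FPKM among all protein-coding FPKM, which does not depend on the scale of a library, was also highest in both total-cell libraries.

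**Figure D3:**
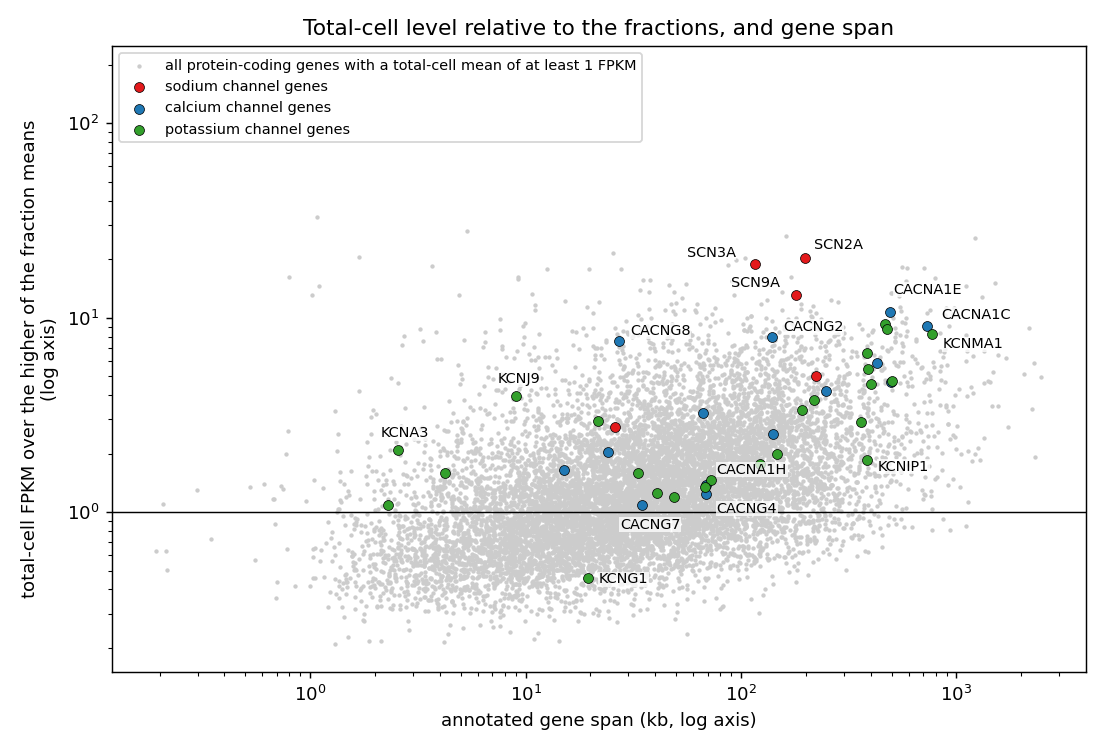
Ratio of the total-cell mean to the higher of the fraction means (log axis) against the annotated span of the gene in kb (log axis) for the 43 channel genes with a total-cell mean of at least 1 FPKM (coloured by family) and for all protein-coding genes with that level (grey). The channel genes run from 0.459 (KCNG1) to 20.3 (SCN2A), and those above 5 have a median span of 385 kb.

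Channel genes with the larger excess in the total cell had longer annotated spans. The 14 genes over 5 times had a median annotated span of 385 kb, and the 15 genes at 2 times or less one of 48.8 kb. Across the 43 genes the log2 difference of cytoplasm against nucleus had a Spearman correlation of -0.60 with span and -0.48 with exon length, and across all genes with an annotated length the values were -0.37 and -0.47. For cytoplasm against total cell the channel genes gave -0.58 with span and -0.54 with exon length, and all genes -0.49 and -0.505. For nucleus against total cell the channel genes gave -0.23 and -0.32, and all genes -0.29 and -0.21. These are descriptions across genes, which share libraries and are not independent replicates. Exceptions to the length pattern were CACNG8, with 7.63 times on a span of 27.2 kb, and KCNIP1, a calcium-binding subunit of A-type channels, with 1.86 times on 383 kb.

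Low channel genes included a small group that was higher in the cytoplasm than in the total cell. With no filter on level, 8 of the 135 genes were higher there (limma), where 19.6% of 18780 genes were, and 84 were lower, where 42.2% were. In the same fit 52 of the 135 were higher in the cytoplasm than in the nucleus and 0 lower, where 62.7% and 0.873% of all genes were, and 1 was higher and 104 were lower in the nucleus than in the total cell, where 0.532% and 79.1% were. The 8 genes higher in the cytoplasm than in the total cell were named after their values were seen. Their log2 differences were 0.70 for KCNG1, 0.52 for KCNJ8, 0.42 for KCNIP3, 0.30 for CACNG6 and 0.27 for both SCN4B and KCNK5. KCNMB1 was at 0.18 and KCNN4 at 0.06. Levels are given here for KCNJ8 and KCNMB1 only, and a role shared by the 8 was not tested. KCNJ8, a pore gene of ATP-sensitive channels in vascular muscle, had a log2 difference of 0.52 ± 0.06 (limma SE), and its levels were 0.744 and 0.845 FPKM in the cytoplasmic libraries and 0.194 and 0.302 FPKM in the total-cell libraries. KCNMB1, the beta subunit of smooth muscle, had 0.240 and 0.152 FPKM in the cytoplasmic and 0.0808 and 0.0310 FPKM in the total-cell libraries. Both genes were higher in every cytoplasmic library. The mesenchymal and vascular markers ACTA2 and TAGLN were also higher in the cytoplasm, with ACTA2 at 12.6 and 10.3 FPKM there and at 4.86 and 4.29 FPKM in the total cell, while COL3A1 and LUM of the same list were lower in both cytoplasmic than in both total-cell libraries. COL3A1 had 20.4 and 20.04 FPKM in the cytoplasmic and 22.2 and 27.4 FPKM in the total-cell libraries, and LUM 1.47 and 1.49 FPKM in the cytoplasmic and 2.13 and 2.58 FPKM in the total-cell libraries. The endothelial markers PECAM1 and CDH5 were at most 0.0655 FPKM in all libraries. Over the 8 markers of that list the sum was 66.8 and 60.8 FPKM in the cytoplasmic, 41.3 and 47.9 FPKM in the nuclear and 42.7 and 50.5 FPKM in the total-cell libraries. Their part in the result was not tested.

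A list of 35 partner genes, whose products anchor, traffic, regulate or accompany these channels, held 33 genes with a value, of which 17 were tested. In the cytoplasm 14 were higher than in the nucleus, 1 was lower and 2 were not called (limma), where 90.1% of all tested genes were higher and 1.26% lower. The median log2 difference was 0.46, against 0.82 for all genes. With equal medians 5 were higher and 8 lower, where 40% of all genes were higher and 33.4% lower, with a median of -0.11 against 0.03 for all genes. The highest were CALM3 and CALM2, which encode calmodulin, the calcium sensor bound to many of these channels. CALM3 had 89.8 and 80.8 FPKM in the cytoplasmic libraries, 20.7 and 21.8 FPKM in the nuclear libraries and 74.9 and 73.9 FPKM in the total-cell libraries, while CALM2 had 66.9 and 69.7 FPKM in the cytoplasmic, 16.5 and 20.4 FPKM in the nuclear and 67.3 and 79.0 FPKM in the total-cell libraries. Both genes were lowest in both nuclear libraries. Their log2 differences to the nucleus of 1.95 and 1.84 were above the median of all genes, and they were called higher with equal medians as well (0.80 and 0.69).

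ANK3 encodes ankyrin-G, the scaffold that holds sodium channels at the axon initial segment. It had 0.269 and 0.268 FPKM in the cytoplasmic libraries, 0.512 and 0.679 FPKM in the nuclear libraries and 9.91 and 11.5 FPKM in the total-cell libraries. It was the partner lower in the cytoplasm than in the nucleus (-0.33 ± 0.11, limma SE, adjusted p = 0.0041), and it stood lower against the total cell in the cytoplasm (-3.20) and the nucleus (-2.87), as SCN2A and SCN3A did. The call against the nucleus was lost without cytoplasm replicate 1 (limma adjusted p = 0.0593), cytoplasm replicate 2 (0.0577) or nucleus replicate 2 (0.112), and with its own spread (0.0562). The NALCN accessory gene UNC79, with 1.04 and 1.01 FPKM in the cytoplasmic, 0.663 and 0.784 FPKM in the nuclear and 5.41 and 6.38 FPKM in the total-cell libraries, also stood highest in the total cell. STAC, an adaptor of L-type calcium channels, was the 1 partner of 17 called higher in the cytoplasm than in the total cell (0.42 ± 0.10, limma SE, adjusted p = 8.06e-05), where 30.3% of all tested genes were.

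**Figure D4:**
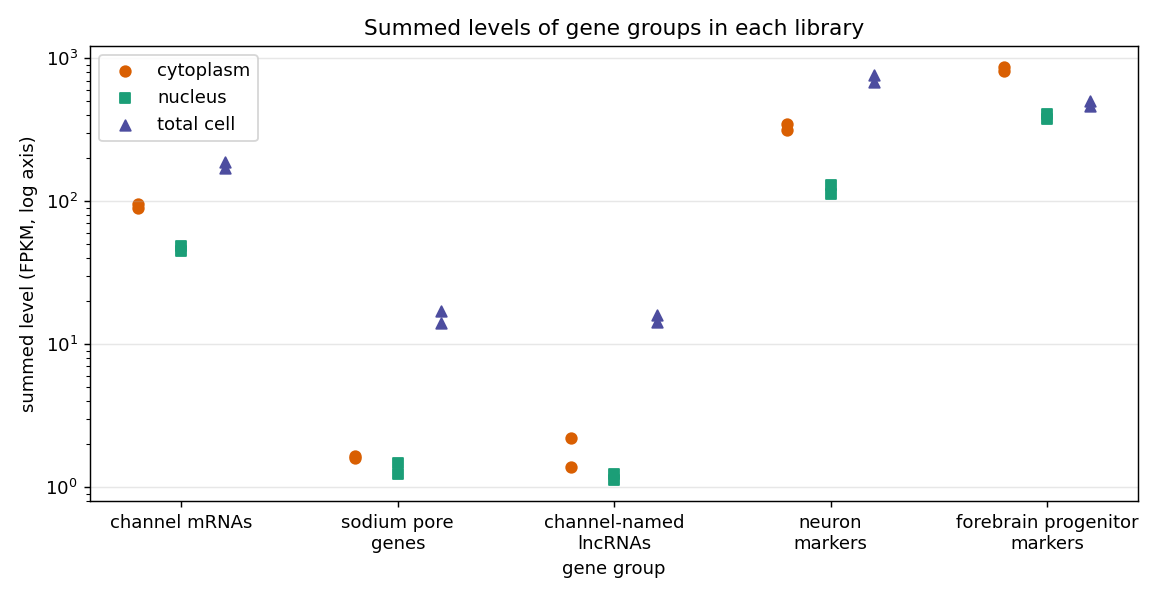
Summed level in FPKM (log axis) of gene groups in each library of the cytoplasm (circles), the nucleus (squares) and the total cell (triangles). The sodium pore genes and the channel-named lncRNAs stand far higher in the total cell than in either fraction, while the forebrain progenitor markers are highest in the cytoplasm.

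Long noncoding RNAs named after channel genes were listed in a separate table, whose scale need not match that of the mRNA table, and are given as a description. Of 33 such lncRNAs 32 had a value above 0, and for 28 both total-cell values lay above all fraction values, where 55.2% of 14838 lncRNAs did. Their sum was 2.22 and 1.38 FPKM in the cytoplasmic, 1.11 and 1.24 FPKM in the nuclear and 14.4 and 16.0 FPKM in the total-cell libraries. Of the 27 with a position in the annotation used, 20 lie inside the span of the gene they are named after, and since no source used here states whether counting used the strand, reads of the host's introns cannot be told apart from them. CACNA1C-IT3, inside the span of CACNA1C and on its strand, was listed at 0 in both cytoplasmic libraries, at 0.0134 and 0 FPKM in the nuclear libraries and at 1.06 and 0.988 FPKM in the total-cell libraries. KCNQ1OT1, the imprinted antisense transcript of the KCNQ1 locus and known to act in the nucleus, had 0.0164 and 0.0267 FPKM in the cytoplasmic, 0.0399 and 0.0507 FPKM in the nuclear and 1.05 and 1.22 FPKM in the total-cell libraries. For both the total cell stood far above either fraction, the nuclear fraction included.

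Circular RNAs are closed rings recognised by reads across a junction that joins the end of an exon to the start of the same or an earlier exon. The circRNA table held 116 rings from 33 channel genes among 31559 rings, and 66 of the 116 rested on 1 read. The junctions of the 4 rings with the highest mean are shown because the junction is what the reads identify. They were rebuilt from the reference exons (GENCODE v29, GRCh38), with 30 bases on each side of the junction, and capitals mark the start of the first exon of the ring, which follows the end of its last exon.

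KCNN2 exon 3, chr5:114404438-114404856: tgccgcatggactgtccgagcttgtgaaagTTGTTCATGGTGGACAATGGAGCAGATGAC
KCNH8 exons 6 to 11, chr3:19390481-19456982: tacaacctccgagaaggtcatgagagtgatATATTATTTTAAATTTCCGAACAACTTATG
CACNA1A exons 8 to 9, chr19:13332869-13334493: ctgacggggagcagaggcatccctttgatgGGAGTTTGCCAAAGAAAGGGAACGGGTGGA
KCNH1 exon 7, chr1:210919640-210920069: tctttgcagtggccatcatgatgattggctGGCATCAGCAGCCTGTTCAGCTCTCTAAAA

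All 4 rings consist of coding bases, over 419, 1229, 173 and 430 bases if every exon between the ends is kept, which junction reads do not show. The ring of KCNN2, a small-conductance pore gene, had 16 and 18 reads in the cytoplasmic libraries, 4 and 1 reads in the nuclear libraries and 6 and 5 reads in the total-cell libraries. The ring of KCNH8 had 17 and 12 reads in the cytoplasmic, 0 and 2 reads in the nuclear and 8 and 7 reads in the total-cell libraries. Both rings had more reads in each cytoplasmic library than in each nuclear library. In FPB, the deposited unit, which no source used here defines, the KCNN2 ring stood at 0.798 and 0.864 in the cytoplasm, 0.330 and 0.0678 in the nucleus and 0.739 and 0.493 in the total cell. The KCNH8 ring stood at 0.848 and 0.576 in the cytoplasm, 0 and 0.136 in the nucleus and 0.985 and 0.690 in the total cell, so that its cytoplasmic and total-cell values overlapped. The rings of CACNA1A and KCNH1 had 3 and 0 and then 0 and 5 reads in the cytoplasmic libraries, no read in the nuclear libraries, and 7 and 10 and then 5 and 6 reads in the total-cell libraries. A count of 0 allows up to 0.247 and 0.203 FPB in the nuclear libraries, taking 3 reads as the limit, so absence from the nucleus is not shown at this depth.

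The rings of KCNN2 and KCNH8 were the 2 channel rings with enough reads to test, and both were higher in the cytoplasm than in the nucleus, where 30.9% of 914 rings were. The log2 differences were 1.70 ± 0.54 (limma SE, adjusted p = 0.0307) for KCNN2 and 2.21 ± 0.57 (adjusted p = 0.0138) for KCNH8. The call of the KCNN2 ring was lost without either cytoplasmic library, without nucleus replicate 2 or without either total-cell library (limma adjusted p 0.0661 to 0.224), and that of the KCNH8 ring without cytoplasm replicate 1 (0.141) or cytoplasm replicate 2 (0.125). Without those libraries 15 and 14 of all 914 rings were called higher, and the KCNN2 difference was 1.75 and 1.65 and the KCNH8 difference 1.97 and 2.44. Without nucleus replicate 2 the KCNN2 difference was 1.07. Scaled by the factors of the mRNA table, neither was called (limma adjusted p of 0.592 and 0.351). With that scaling 0 of all 914 rings were called higher and 1 was called lower. The mRNA of KCNH8 was 0.22 higher in the cytoplasm on its own scale, and the difference between ring and mRNA was not tested, since the tables were scaled separately.

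All channel rings together made up 0.198% and 0.232% of ring reads in the cytoplasm, 0.112% and 0.221% in the nucleus and 0.276% and 0.210% in the total cell. The exact 95% intervals of the lowest and the highest library were 0.0630% to 0.185% and 0.216% to 0.347%, covering counting error only. The 3 groups overlapped, and the share of ring reads did not separate the total cell from the fractions at this depth.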

How the data were processed

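The authors deposited FPKM in separate tables for mRNAs and lncRNAs, per the file headers. For circRNAs the deposited signal is FPB, which no source used here defines. All its values were whole multiples of the smallest value of their library within 0.05, so whole read counts were recovered from the deposited values (100%, with 278 of 914 rings called higher in the cytoplasm by edgeR). The submitters' processing notes list the builds hg38 and GRCh38 and the tools featureCounts 2.0.1, SAMtools 1.9, Bowtie, HISAT2 2.1.0 and Trimmomatic 0.39, with no role for each. Not given in the sources used here are the annotation release, the strand setting, how overlapping genes were counted and the circRNA caller.

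Values were tested as log2(FPKM + 1) with limma 3.58.1 (R 4.3.3, intensity trend) with 1 coefficient per fraction over all 6 libraries, on all protein-coding genes with a mean of at least 1 FPKM, with Benjamini-Hochberg adjustment over that table at 0.05. On this scale the change of a low gene is understated. CircRNAs were tested as log2(FPB + 1 read of the shallowest library) when their mean reached 3 such reads; edgeR 4.0.16 on the recovered reads was an alternative. The code was tested on simulated data. Values in all libraries are given for the 3 highest total-cell genes of each family, the 6 lowest scaled differences, the highest partners and the 4 highest rings, except for a few genes that are not reported here and were kept in all fits and counts, but not in the plots that name genes. The genes CACNB1, CACNB2, CACNB4, CACNA2D3, KCNH8, KCNF1, KCNG1, UNC79, STAC, the low genes higher in the cytoplasm, the lncRNAs and the ratios to the total cell were named after their values were seen. Members and lists were chosen with earlier results of these data known. Alternatives were the pseudocount, the filter, the scaling, the trend, the libraries in the fit, the replicate block and each library left out; the spread of each gene alone, the choice of genes by fraction level and the total-cell filter with equal medians were added after the data were seen.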

Additional observations from a re-analysis of the deposited data

How the results depend on the processing

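With 2 libraries a group, no single gene has a measured spread worth much, and the scale between fractions is not settled by the files: FPKM steps correspond to 112000000 to 120000000 fragments in the nuclear and 38700000 to 45700000 in the cytoplasmic libraries, whereas FPB steps correspond to 12.1 to 14.7 and 20.1 to 20.8 Gb of mapped bases, if FPB is per Gb. The cause of the changes below was not tested beyond the settings themselves, which change the genes tested or the scale.

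Of 24 channel genes, 18 were higher in the cytoplasm than in the nucleus. This count was 52 of 135 with no filter, 0 with equal medians and 3 of 43 with the total-cell filter and equal medians. The count of lower genes, 0, became 11 with equal medians and 20 of 43 with both. Against the total cell, the higher genes in the cytoplasm, 1, became 8 with no filter and 3 with both, and the 20 lower genes became 84 with no filter, 38 with the total-cell filter and 35 with both. For the nucleus against the total cell, 0 higher genes became 1 with no filter, 2 with equal medians and 3 with both, and 23 lower genes became 104 with no filter, 42 with the total-cell filter and 15 with equal medians. With each library left out in turn, the median log2 difference of cytoplasm against nucleus was 0.42 to 0.46 for channel genes and 0.76 to 0.88 for all tested genes. For cytoplasm against total cell it was -0.72 to -0.54 for channel genes and -0.21 to -0.04 for all tested genes. For nucleus against total cell it was -1.31 to -1.24 for channel genes and -1.14 to -0.97 for all tested genes.

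The 40 genes with both total-cell values above the fractions became 14 of 18 with the choice by fraction level and 21 of 24 with the mean over all libraries. Of all protein-coding genes, 44.8% and 49.6% showed this at those filters. The 28 with a total-cell mean over 2 times both fraction means became 3 of 18 and 11 of 24, where 15.6% and 21.5% of all protein-coding genes reached this.

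For the partners, the 14 higher genes became 5 with equal medians and 5 with both. With a library left out, the median log2 difference of the partners was 0.43 to 0.49, against 0.76 to 0.88 for all tested genes. The 1 lower gene, ANK3, became 8 genes with equal medians, 12 with both and 0 with the spread of each gene alone. The ANK3 difference was -0.40 to -0.25 with a library left out. The 2 rings called higher became 0 of 8 with a mean of at least 1 read, where 3.69% of 2984 rings were higher. Scaled by the mRNA factors they became 0 of 2, where 0 of 914 rings were higher.

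With equal medians these differences of cytoplasm against nucleus turned negative: KCND3 -0.0852, KCNH8 -0.26, CACNA2D2 -0.69, KCNH2 -0.10, KCNB2 -0.38, CACNA1B -0.54, KCNC1 -0.0858, KCNA6 -0.29, KCNK10 -0.16, CACNA1H -0.68, CACNB1 -0.17, CACNA1A -0.43 and KCNN1 -0.11. Against the total cell these turned positive: in the cytoplasm KCNF1 0.11, CACNG4 0.0012, KCNN1 0.0316 and CACNG7 0.16, and in the nucleus KCNF1 0.0366, KCNA6 0.0566, CACNA1H 0.54, KCNN1 0.14 and KCNG1 0.78. CACNA1A, at 0.0004 between cytoplasm and nucleus, was -0.0003 at a pseudocount of 0.1 FPKM and -0.0334 to 0.0342 with a library left out, and SCN2A was -0.0562 to 0.0048 with a library left out.

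Replicate numbers are shared by the 3 groups, but the labels do not say that they pair the libraries, and the deviations of libraries with the same number correlated at 0.012 (cytoplasm and nucleus), 0.15 (cytoplasm and total cell) and 0.461 (nucleus and total cell). With the replicate number as a block, the counts were 18 higher in the cytoplasm than in the nucleus, 1 higher and 20 lower than in the total cell, 23 lower in the nucleus, 14 and 1 partners and 2 rings, and no call named here changed. Of all tested genes in that fit, 90.2% were higher and 1.27% lower in the cytoplasm than in the nucleus. Against the total cell 30.2% were higher and 44% lower in the cytoplasm, and 94.7% were lower in the nucleus. Of all 914 rings 33% were higher in the cytoplasm.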
